A study of Drosophila melanogaster with 2 samples.

Results

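Glutathione S-transferases (GSTs) are detoxifying enzymes that couple the tripeptide glutathione to electrophilic compounds, among them insecticides and the reactive products of lipid peroxidation. The GST genes described here are the 35 protein-coding genes of Drosophila melanogaster whose annotated symbol is Gst followed by the letter of a class (D, E, S, T, O or Z) and a number, out of 13945 protein-coding genes on the 6 chromosome arms. They comprise 14 Epsilon, 11 Delta, 4 Theta, 3 Omega, 2 Zeta and 1 Sigma genes. The Delta and Epsilon classes are the large insect classes, expanded by tandem duplication, and they hold most of the enzymes linked to insecticide resistance. Many of these genes are switched on by CncC, the fly homologue of Nrf2, which is held back by Keap1. Reporters driven by GstD1 sequence are widely used as a readout of oxidative stress in fly tissue, including in cells that are being eliminated by cell competition. Xrp1 is a basic leucine zipper and AT-hook protein known for its role in the loss of such cells and in stress responses, and it pairs with Irbp18, the fly C/EBP-family partner.

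The data are peak lists from chromatin immunoprecipitation followed by sequencing (ChIP-seq). There was 1 group with 2 biological replicates: whole embryos, aged 8 to 24 h, of a transgenic strain that expresses Xrp1 fused to enhanced GFP, labelled Xrp1-GFP. Chromatin sheared by sonication to 200 to 800 bp was precipitated with an antibody to GFP. The labels name no treatment or comparison group, and no experiment on untagged embryos was analysed here. Whether untagged Xrp1 was also present in the strain is not given in the sources used here. Whole embryos mix all cell types, so a peak does not say in which cells the protein was bound, and the tissue could not be checked against expression markers because the files hold peaks only. Read depth is unknown, and intervals cover counting error only.

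The conservative list held 7537 peaks that passed the irreproducible discovery rate (IDR) procedure across the 2 replicates. The global IDR of a peak estimates the share of irreproducible peaks among those ranked at least as high, and the listed peaks lay at or below 0.01. A ranked list of the same comparison held 90973 peaks with no threshold applied, including each of the conservative peaks. Each replicate also had its own thresholded list, of 7520 peaks in replicate 1 and 4402 in replicate 2, and its own ranked list, of 71329 and 66550 peaks. Peak positions below are dm6 coordinates, and signal is the authors' own peak height, which ranks peaks only within a list.

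Conservative Xrp1-eGFP peaks lay at a minority of GST genes, in a share close to that of protein-coding genes in general. A conservative summit lay within 500 bp of a transcription start site (TSS) of 8 of the 35 GST genes (22.9%, 95% Wilson interval 12.1 to 39.0%), against 23.2% of all protein-coding genes. These 8 were GstD1 (Delta), GstE1, GstE10, GstE11, GstE12 and GstE13 (Epsilon), GstT4 (Theta) and GstO1 (Omega). Thus 1 of 11 Delta, 5 of 14 Epsilon, 1 of 4 Theta and 1 of 3 Omega genes had such a summit, and neither Zeta gene nor the Sigma gene did. Because GstE1 and GstE10 share a peak, the 8 genes rest on 7 peaks. Within 1000 bp the count was 9 of 35 (25.7%) against 27.1%, with the addition of GstZ2, and within 2000 bp it was 12 of 35 (34.3%) against 33.3%, with GstE2, GstO2 and GstD9 sharing the peaks of their neighbours. The share was also read by the number of annotated TSSs. Among genes with 1 TSS, 5 of 28 GST genes (17.9%) and 1840 of 10246 protein-coding genes (18.0%) had a summit within 500 bp, and among genes with more, 3 of 7 GST genes (42.9%) and 1394 of 3699 protein-coding genes (37.7%). The shares are descriptions with no test, since neighbouring members share peaks.

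**Figure D1:**
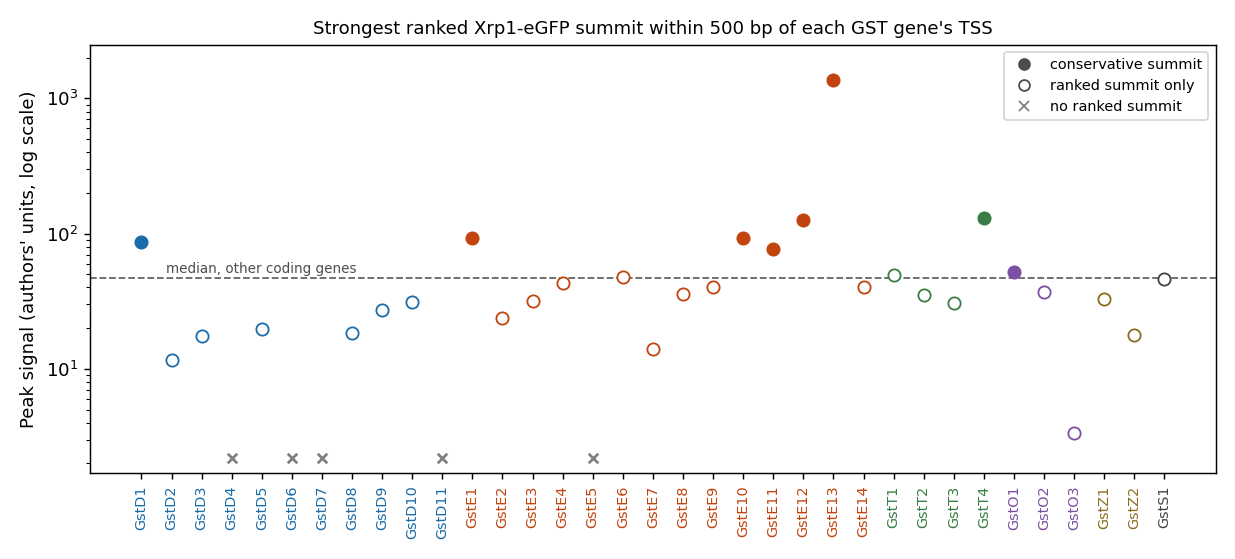
Strongest ranked summit within 500 bp of a TSS for each of the 35 GST genes, by class (colour), on the authors' signal scale (log axis). Filled points are in the conservative list, open points only in the ranked list, crosses mark the 5 genes with no ranked summit, and the dashed line is the median of 47.1 over the 9359 other protein-coding genes with one. GstE13, at 1363, stands more than an order of magnitude above its nearest neighbours GstT4 (131) and GstE12 (126).

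GstD1, the Delta enzyme that dehydrochlorinates DDT and whose promoter drives the common stress reporters, carried the only conservative peak of its class. The peak, chr3R:12369131-12369494, had its summit 45 bp upstream of the GstD1 TSS, between genes, with a signal of 87.2. That signal ranked 5423 of 7537 conservative peaks (top 72.0%), at a global IDR of 0.00236. In the replicates' own ranked lists the same summit had a signal of 43.5 in replicate 1 (rank 7714, top 10.8%) and 39.6 in replicate 2 (rank 4823, top 7.25%), at positions 9 bp apart. Neither own value passed the replicate's threshold (global IDR 0.144 in replicate 1 and 0.143 in replicate 2). The GstD1 peak was thus retained by the comparison of the replicates and by neither replicate alone.

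GstT4, a Theta gene on the X chromosome, had a peak of higher signal and lower global IDR. Its summit in chrX:13404279-13404642 lay 288 bp upstream of the TSS, between genes, with a signal of 131 (rank 3481, top 46.2%) and a global IDR of 0.000322. It was in both replicates' thresholded lists, with a signal of 82.7 in replicate 1 and 43.9 in replicate 2. GstO1, an Omega gene on arm 3L, had the weakest of the 7 peaks. In chr3L:8525053-8525416 the summit lay 369 bp upstream of GstO1 with a signal of 52.0 (rank 7160 of 7537) and a global IDR of 0.00825. The TSS nearest to this summit was that of foi (fear of intimacy, a zinc transporter), 9 bp away, so a gene that is no GST lay closer. Neither replicate alone listed it above threshold, at signals of 35.1 in replicate 1 (global IDR 0.626) and 28.1 in replicate 2 (global IDR 0.308). A second thresholded list of both replicates, of 8735 peaks, also lacked a summit within 500 bp of GstO1. That list had one at the other 7 GST genes with a conservative summit that near. GstZ2 belongs to the Zeta class, the class of maleylacetoacetate isomerase in tyrosine breakdown. Its peak in chr3R:9459718-9460081 lay in an intron, 724 bp upstream of the nearest of its 3 TSSs, so beyond the 500 bp limit, with a signal of 139 (rank 3243, top 43.0%) and a global IDR of 0.00018. Both replicates listed that peak, at signals of 92.1 in replicate 1 and 48.9 in replicate 2. The GstZ2 peak therefore ranked above those of GstD1, GstT4 and GstO1 while lying farther from a TSS.

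The bases up to 50 bp either side of these 4 summits are shown for the base composition and core promoter letters at the peaks outside the Epsilon class. Each is from the dm6 RefSeq reference, 5′ to 3′ on the strand of the gene, with the summit at the middle base. Capitals mark every match to any of the 11 short motifs spelled out below, which at these summits were TATAAA (the TATA box) and TATCGATA (the DNA replication-related element, DRE).
GstD1, chr3R:12369263-12369363, minus strand: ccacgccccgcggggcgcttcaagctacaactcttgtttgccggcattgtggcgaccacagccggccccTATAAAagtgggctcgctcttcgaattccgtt
GstT4, chrX:13404411-13404511, plus strand: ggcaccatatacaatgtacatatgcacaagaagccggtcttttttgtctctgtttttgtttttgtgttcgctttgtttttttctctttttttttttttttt
GstO1, chr3L:8525185-8525285, minus strand: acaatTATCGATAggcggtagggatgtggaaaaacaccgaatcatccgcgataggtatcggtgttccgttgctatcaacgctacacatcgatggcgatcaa
GstZ2, chr3R:9459850-9459950, minus strand: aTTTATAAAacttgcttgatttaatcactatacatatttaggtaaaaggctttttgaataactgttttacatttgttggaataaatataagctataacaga
The GstD1 summit sat in GC-rich sequence (60.4% G or C) with a TATA box between the summit and the TSS. GstT4 (30.7% G or C, with a long run of T) and GstZ2 (22.8%) were AT-rich, and the GstO1 window, which is also the start of foi, was intermediate (47.5%) and held a DRE. In GstZ2 the capitals cover a TATAAA on each strand, which overlap.

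The 11 motifs were searched on both strands in the 300 bp from 250 bp before to 50 bp after 1 TSS of each gene. That was the TSS nearest to a conservative summit where the summit lay within 500 bp, and the gene start elsewhere. For genes with several TSSs the window could thus depend on the peaks, for GST and all protein-coding genes alike. They were TGATGNAA (CARE, the C/EBP and ATF response element), TTGCNNAA (C/EBP), TGANGCAA (a CRE and C/EBP composite), TGACGTCA (CRE), TGANTCA (AP-1), TGACNNNGC (the antioxidant element bound by Nrf2-type dimers), CACGTG (E-box), AGATAA (the GATA element), GAGAGAG (the GAGA element), TATCGATA (DRE) and TATAAA (the TATA box). The first 3 can overlap one another, and TGATGCAA matches both the first and the third. Of the letters bound by basic leucine zipper proteins, C/EBP was in 11 of 35 GST promoters (31.4%) against 22.9% of all 13945 protein-coding promoters, CARE in 4 (11.4%) against 4.17%, and the composite in 2 (5.71%) against 3.13%. AP-1 was in 2 (5.71%) against 6.22%, CRE in 0 against 0.430%, and the antioxidant element in 1, that of GstE3 (2.86%), against 8.65%. Among core and general motifs, TATA was in 21 GST promoters (60.0%) against 45.7% and in 9 of the 11 Delta promoters. GATA was in 12 (34.3%) against 18.6%, GAGA in 4 (11.4%) against 6.18%, DRE in 2 (5.71%) against 9.09%, and the E-box in 0 against 4.24%. For 2 motifs the side of the background depended on the window. C/EBP letters were in 5 GST promoters (14.3%) against 15.1% from 150 bp before to 50 bp after the TSS, and in 15 (42.9%) against 36.8% over the 500 bp before it. AP-1 was in 6 GST promoters (17.1%) against 10.1% over the 500 bp before the TSS, and in 1 (2.86%) against 3.94% in the shorter window. The other 9 motifs stayed on the same side of the background in the 3 windows. A match is a run of letters and not a binding site.

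The CARE promoters were those of GstT1, GstE1, GstO1 and GstD8, of which GstE1 and GstO1 also had a conservative summit within 500 bp. The lines that come next are 30 bases each, 5′ to 3′ on the strand of the gene (minus for GstO1 and GstD9, plus for the others), with the match in capitals, which in GstD8 is the reverse complement of the motif. They show the letters of the CARE matches outside the Epsilon and Theta genes and of the C/EBP matches in the Delta cluster.
GstO1 CARE and composite, 232 bp upstream of the TSS, chr3L:8525091-8525098: atttggagcagTGATGCAAatagtctatta
GstD8 CARE, 21 bp downstream of the TSS, chr3R:12380029-12380036: attgtaggaccTTTCATCAtggacttttac
GstD9 C/EBP, 91 bp upstream, chr3R:12367648-12367655: tctttcctcttTTGCTAAAtctctccgaat
GstD3 C/EBP, 160 bp upstream, chr3R:12372908-12372915: attcgaacagtTTGCACAAacacataaagc
GstD6 C/EBP, 156 bp upstream, chr3R:12376972-12376979: attaatacaaaTTGCATAAaattctttatt
GstD7 C/EBP, 177 bp upstream, chr3R:12378323-12378330: gataagctattTTGCATAAttgtataaaat
The GstO1 match lay inside that gene's conservative peak, 141 bp from the summit towards GstO1. None of the 4 Delta genes with C/EBP letters had a conservative summit within 500 bp, and GstD6 and GstD7 had no ranked summit there in any of the 3 ranked lists read for it. GstD1 had none of the C/EBP, CARE or composite letters in its promoter.

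At the 7 conservative summits within 500 bp of a GST gene, the 11 motifs gave 5 pairs of summit and motif within 50 bp. Each motif found was at 1 of the 7 summits (14.3%). Within 50 bp of the summit the peak shared by GstE1 and GstE10 held C/EBP letters (found at 678 of all 7534 summits on the arms), the composite (0.969%) and GAGA (1.43%), all upstream of GstE1 and within 34 bp of the summit. The GstD1 window held TATA (23.3% of all summits) and the GstO1 window DRE (1.21%). No window held CARE (1.38% of all summits). At GstE13, GstE12, GstE11 and GstT4 none of the 11 motifs was found. Over whole peak intervals, 2 of the 7 peaks held CARE, those of GstE1 and GstO1, against 4.25% of all conservative peaks, and 3 held C/EBP letters (24.1%), those of GstE1, GstO1 and GstE13. In the same intervals the composite was in 2 (3.37%), GAGA in 3 (7.54%), TATA in 3 (45.0%), GATA in 1 (20.3%) and DRE in 1 (3.90%), and CRE, AP-1, the antioxidant element and the E-box were in 0.

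The Epsilon class, the largest with 14 of the 35 GST genes, held the strongest peak, that of GstE13. That class also held 5 of the 8 genes with a conservative summit within 500 bp. The peaks at the other Epsilon genes had lower signals than those of GstZ2 (139) and GstT4 (131). GstE13 had by far the highest signal of any GST gene, 1363, which ranked 44 of 7537 conservative peaks (top 0.584%) at a global IDR of 1e-05. Its peak, chr2R:9122028-9122375, had the summit 68 bp downstream of the TSS in the 5′ UTR of GstE13. Replicate 1 gave it 859 (rank 51) and replicate 2 gave it 510 (rank 40), with summits 1 bp apart. GstE13 was thus in the top 0.0715% of ranked peaks in replicate 1 and the top 0.0601% in replicate 2. GstE12 also had its peak at the gene start. In chr2R:24767966-24768329 the summit lay 24 bp downstream of the TSS, in the 5′ UTR, with a signal of 126 (rank 3640, top 48.3%) and a global IDR of 0.000154. Replicate 1 gave GstE12 75.7 and replicate 2 gave it 70.3, with summits 86 bp apart on either side of the TSS. GstE11 had its summit 361 bp into the gene, in an intron, in chr2R:18503787-18504150, with a signal of 77.6 (rank 6093, top 80.8%) and a global IDR of 0.00489. Its own signals of 40.1 in replicate 1 and 30.4 in replicate 2 passed neither replicate's threshold.

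GstE1 and GstE10 are transcribed in opposite directions from overlapping starts near the edge of the Epsilon cluster, and a single peak, chr2R:18398182-18398545, covered the starts of both. The summit lay 29 bp upstream of GstE1 and 155 bp inside GstE10, in an intron, with a signal of 92.3 (rank 5150, top 68.3%) and a global IDR of 0.00148. Replicate 1 gave it 47.4 (top 9.89%) and replicate 2 gave it 47.3 (top 5.69%), with summits 1 bp apart, and only replicate 2 listed it above its own threshold. Over the 7 peaks, those of GstE13, GstT4 and GstE12 lay above the list's median signal of 123 and the other 4 below it. GstE14 (noppera-bo), an Epsilon member needed for ecdysteroid synthesis, had no conservative summit nearer than 9425 bp. GstS1, the Sigma enzyme that is abundant in flight muscle and conjugates 4-hydroxynonenal, had none nearer than 3229 bp.

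The replicates' own thresholded lists held fewer GST genes than the conservative list. Replicate 1 had a summit within 500 bp of 3 GST genes (8.57%, interval 2.96 to 22.4%), namely GstE13, GstE12 and GstT4, against 23.0% of protein-coding genes. Replicate 2 had one at 5 (14.3%, interval 6.26 to 29.4%), adding GstE1 and GstE10, against 14.6%. GstE13, GstE12 and GstT4 were therefore the GST genes listed by each replicate on its own, while GstD1, GstE11 and GstO1 were listed by neither. In the ranked list of replicate 1, 28 GST genes (80%) had a summit of any strength within 500 bp, against 63.4% of 13910 other protein-coding genes. In that of replicate 2 it was also 28 (80%), against 62.3%. Both replicates had one at 24 of 35 GST genes and at 7557 of 13910 others. The 2 summits of a gene lay within 100 bp of each other for 14 of those 24 (58.3%), against 4737 of 7557 other protein-coding genes (62.7%). Beyond the 8 genes with a conservative summit, the genes with a ranked summit in both replicates had signals of 6.27 to 32.4 in replicate 1 and 6.24 to 22.4 in replicate 2. The 8 genes lay above those ranges in both replicates. That order is partly set by the choice of genes, because the conservative list was made from the same replicates.

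**Figure D2:**
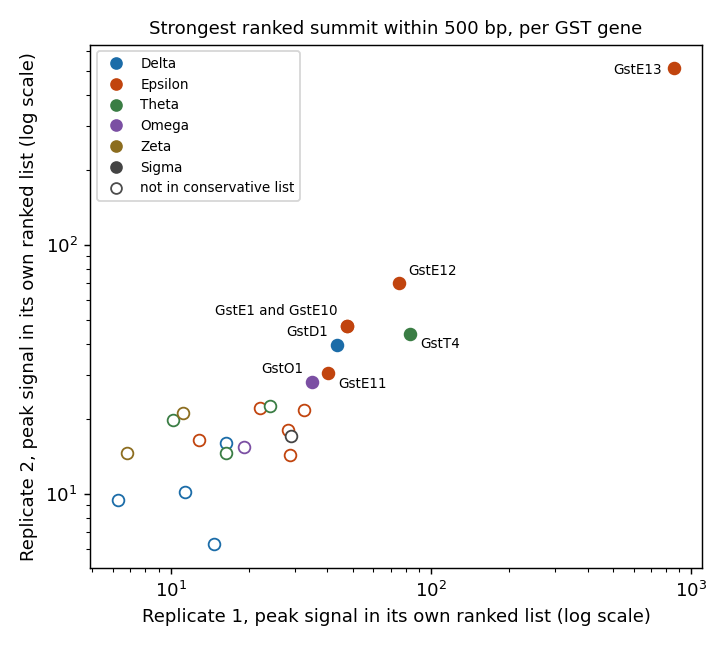
Strongest ranked summit within 500 bp of a TSS in replicate 1 (x axis) and replicate 2 (y axis) for the 24 GST genes with one in both, as signals of each replicate's own ranked list (log axes, colours by class). Filled points are the 8 genes with a conservative summit, of which GstE1 and GstE10 share a point. They lie at or above 35.1 in replicate 1 and 28.1 in replicate 2, above each open point. The conservative list was made from the same replicates, so this order is partly set by the choice of genes.

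At the ranked level GST genes had summits often, and weak ones. A ranked summit of any strength lay within 500 bp of 30 GST genes (85.7%, interval 70.6 to 93.7%), against 67.3% of protein-coding genes. The strongest such summit had a median signal of 36.3 over the 30 GST genes and 47.1 over 9359 other protein-coding genes. In replicate 1 the medians were 23.1 over 28 GST genes and 31.2 over 8817 others, and in replicate 2 they were 18.3 over 28 GST genes and 23.0 over 8666 others. The GST median was thus the lower one in the 3 lists. Within the conservative list it was 92.3 over the 8 GST genes and 145 over 3226 others. Of the 27 GST genes without a conservative summit, 22 had a ranked one, at signals of 3.34 to 49.2 (median 31.6) and a global IDR of 0.0399 to 0.789.

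GstT1 was the only one of those 22 at a global IDR of 0.05 or less. Its ranked summit lay 54 bp upstream of the TSS with a signal of 49.2 and a global IDR of 0.0399, and the replicates' own signals were 24.1 in replicate 1 and 22.4 in replicate 2, 51 bp apart. GstE9 (190 bp downstream, signal 40.4, global IDR 0.0616), GstE6 (53 bp downstream, 48.0, 0.0703) and GstS1 (58 bp downstream of 1 of its 3 TSSs, 46.1, 0.0814) came next, above that limit. GstD4, GstD6, GstD7, GstD11 and GstE5 had no ranked summit within 500 bp in the replicate comparison, and 4 of these 5 were Delta genes. A ranked summit was present at 7 of the 11 Delta genes and 13 of the 14 Epsilon genes, beside 67.3% of protein-coding genes. Counting each replicate's own ranked list, GstD6, GstD7 and GstD8 had none in either replicate. For 32 of the 35 members each 36-base word within 500 bp of the TSS occurs once in the genome; the read length is not given in the sources used here, and any part of repeated sequence in the missing summits was not tested. GstD2 (98.0%), GstD5 (98.1%) and GstD4 (99.8%) had a few repeated words, which GstD2 and GstD5 share with each other.

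In the genome, 28 of the 35 members fall into 5 clusters in which neighbouring genes lie under 20000 bp apart. The Delta cluster, chr3R:12364776-12385624, holds the 11 Delta genes in 20849 bp. The Epsilon cluster, chr2R:18396638-18409835, holds GstE1 to GstE10 in 13198 bp, and the other clusters are those of GstO1 to GstO3, of GstZ1 and GstZ2, and of GstT1 and GstT2. Each of the large clusters had 1 conservative summit. In the Delta cluster that was 48.0 per Mb (exact Poisson interval 1.21 to 267), against 53.3 per Mb over arm 3R, and in the Epsilon cluster 75.8 per Mb (1.92 to 422), against 51.6 per Mb over arm 2R. With 1 summit each, a difference from the arm was not detectable. The Zeta cluster held 1 conservative summit and the Omega and Theta clusters 0 inside the gene bodies, the GstO1 peak lying just outside.

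Weak ranked summits were spread along both large clusters. The Delta cluster held 20, or 0.959 per kb against 0.606 over its arm, with signals of 4.04 to 87.2 and a median of 18.1, and 13 of them were at the lowest IDR score that the list gives. After the GstD1 peak the next highest, at 45.9, lay 758 bp upstream of GstD1 at a global IDR of 0.621. The Epsilon cluster held 18, or 1.36 per kb against 0.609 over its arm, with signals of 12.05 to 92.3 and a median of 23.8, and 2 of them were at the lowest score. Its second highest, at 49.8, lay 1132 bp upstream of GstE4 at a global IDR of 0.0314. Beyond the cluster's other end, a conservative peak of signal 106 lay at the start of Dp1, which encodes a vigilin-type RNA-binding protein, 3059 bp past the TSS of GstE9. A larger share of ranked summits thus stood at the lowest score in the Delta cluster than in the Epsilon cluster. In both clusters most lay above a global IDR of 0.05, 19 of 20 in the Delta and 16 of 18 in the Epsilon cluster. The same shares over all ranked peaks were not computed, so these counts are not read as particular to the clusters. Of the 90973 ranked peaks, 7537 were in the conservative list, and the median signal of the ranked list was 19.0.

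**Figure D3:**
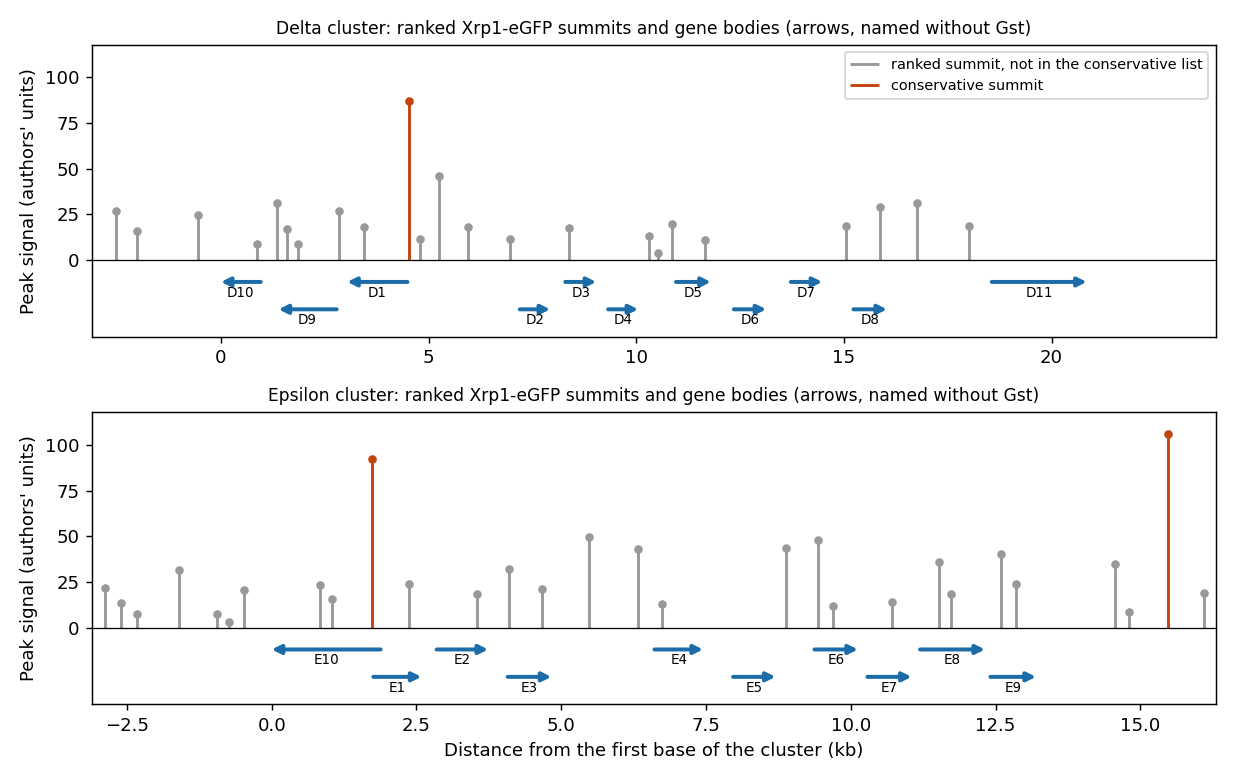
Ranked summits (vertical lines, height = authors' signal) along the Delta cluster (top) and the Epsilon cluster (bottom), by distance from the first base of the cluster in kb, with gene bodies as arrows in the direction of transcription. The red summits are in the conservative list: 87.2 at GstD1, 92.3 between GstE10 and GstE1, and 106 at Dp1 beyond the Epsilon cluster.

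For each of the 35 GST genes a conservative summit lay no farther than 15000 bp away. The nearest summit lay at a median of 3354 bp (range 24 to 14023 bp, quartiles 923 and 6168.5 bp) for GST genes and 4976.5 bp (quartiles 703 and 14497.8 bp) for other protein-coding genes. Within 5000 bp there was a summit for 24 GST genes (68.6%) against 50.1% of other genes, within 10000 bp for 32 (91.4%) against 66.7%, and within 15000 bp for all 35 against 75.7%. Nearer to the TSS the shares crossed, with 8.57% of GST genes and 3.50% of other genes within 50 bp, 14.3% of GST genes and 18.7% of other genes within 250 bp, and 40.0% of GST genes and 39.7% of other genes within 3000 bp. This order at 5000 and 10000 bp held for the conservative list and turned in the stricter or single-replicate lists. In the own list of replicate 1 the median distance was 11389 bp for GST genes and 5105 bp for other genes, with a summit within 10000 bp for 16 GST genes (45.7%) against 67.1%. In that of replicate 2 it was 12183 bp for GST genes and 9142.5 bp for other genes, with 15 GST genes (42.9%) against 52.3% within 10000 bp. For conservative peaks at a global IDR of at most 0.001 it was 15388 bp for GST genes and 8530 bp for other genes, with 11 GST genes (31.4%) against 54.3%. The members are not independent here, since 13 distinct peaks were the nearest ones for all 35 genes. The GstD1 peak was the nearest for the 11 Delta genes, the farthest being GstD11 at 14023 bp, and the peaks at GstE1 and Dp1 were the nearest for the 10 genes of the Epsilon cluster.

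**Figure D4:**
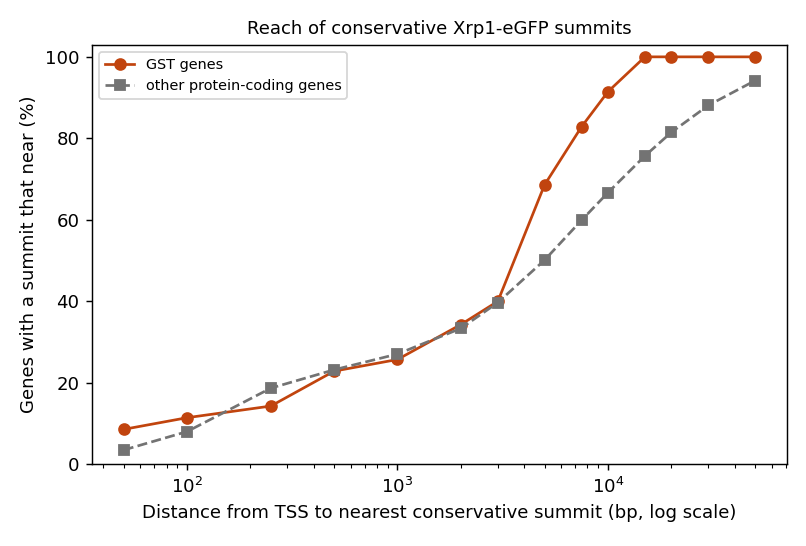
Share of genes with a conservative summit within a given distance of a TSS (log axis, bp), for the 35 GST genes (circles) and 13910 other protein-coding genes (squares). The curves meet at 3000 bp (40.0% of GST genes and 39.7% of other genes) and part beyond it, with 91.4% of GST genes and 66.7% of other genes at 10000 bp, an order that turned in either replicate's own list (45.7% of GST genes and 67.1% of other genes in replicate 1, 42.9% of GST genes and 52.3% of other genes in replicate 2).

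Other genes of glutathione and redox metabolism were read from a list of 55 symbols, of which 46 matched the annotation. Of these, 16 (34.8%) had a conservative summit within 500 bp, against 23.2% of protein-coding genes. Among 16 genes of glutathione synthesis and use, 6 did, and 5 of those, Mrp4 included, had a higher signal than each of the 8 GST genes but GstE13. The strongest were those of GILT2 (a gamma-interferon-inducible lysosomal thiol reductase family member; 603, summit 167 bp upstream), MRP (a conjugate exporter of the ABC family; 601, 209 bp upstream), Mgstl (a microsomal GST, of a family unrelated in sequence; 414, 232 bp upstream) and eEF1gamma (a translation elongation subunit with a GST-like domain; 152, 122 bp upstream). Mrp4 (another conjugate exporter) and gfzf (a zinc finger protein with a GST domain) were the other 2. The genes that make glutathione, Gclc, Gclm, Gss1 and Gss2, had no conservative summit within 500 bp. In other lists, Gclm had a summit that near in the own list of replicate 1. Gclc had one in the ranked list at a global IDR of at most 0.05. No conservative summit lay within 500 bp of se, the Omega-class enzyme of eye pigment synthesis. That gene lies among GstO1 to GstO3, but its symbol falls outside the naming rule.

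In the CncC pathway, cnc (181, summit 320 bp downstream of a TSS) and Keap1 (110, 75 bp upstream) had a conservative summit and were listed by both replicates, while maf-S and ref(2)P, the other 2 listed, had none. Of 14 thioredoxin and superoxide genes 6 did, led by Prx6a (a peroxiredoxin; 215), Sod2 (mitochondrial superoxide dismutase; 161) and Cat (catalase; 124), with the germline thioredoxins TrxT and dhd sharing a peak of 106. Of the 4 NADPH genes, Men (malic enzyme; 161) and Zw (glucose-6-phosphate dehydrogenase; 148) did. None of the 8 phase I cytochrome P450 genes listed had one, the nearest being 5383 bp away, at Cyp6a2. By the replicates' own lists the count was 18 of 46 (39.1%) in replicate 1, against 23.0% of protein-coding genes, and 10 of 46 (21.7%) in replicate 2, against 14.6%.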

How the data were processed

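Xrp1-eGFP peaks were deposited for 2 biological replicates of 1 group of whole embryos. Per the deposited notes, the authors aligned reads to dm6, called peaks with a control and compared replicates by IDR. Which aligner and peak caller ran is not given in the sources used here. Deposited columns used were the authors' peak signal (no statement says how it relates to depth), their IDR score, which is a transform of the global IDR, and, in the ranked lists, the deposited −log10 of the global IDR. Conservative, second and single-replicate lists are thresholded by the authors, and the ranked lists are not. The order of columns is that of narrowPeak and IDR output, checked on the values.

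Genes and TSSs came from the Ensembl release 115 annotation (18164 genes on 6 arms, without 5896 transposable elements) and sequence from the RefSeq dm6 reference. Distances run from a summit to each TSS of a gene, and the nearest was kept. Values were computed with Python 3.11.15, pandas 2.3.3, NumPy 2.4.6 and SciPy 1.17.1, and drawn with matplotlib 3.10.9. Peak assignment and motif search were tested on simulated data. Every member is named. Full values go to members with a conservative summit within 2000 bp, or a ranked summit at a global IDR of at most 0.05 within 500 bp, and of the listed pathway genes up to 4 per role with the highest signals are given first. The members, lists and motifs were chosen with earlier results of these data known, and the scan of whole peak intervals was chosen after seeing the data. No test was made between genes, because there is 1 group and the files hold peaks. Replicates were read side by side from their own lists. Alternatives covered the peak list, the IDR limit, the distance, the TSS used, the cluster gap, the motif window and each replicate alone.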

Additional observations from a re-analysis of the deposited data

How the results depend on the processing

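The count of GST genes with a conservative summit within 500 bp was 8 (22.9%, against 23.2% of protein-coding genes). It was 3 for peaks at a global IDR of at most 0.001 (8.57% against 15.5%) and 5 within 250 bp (14.3% against 18.7%). In the replicates' own lists it was 3 in replicate 1 (8.57% against 23.0%) and 5 in replicate 2 (14.3% against 14.6%). Other lists and distances gave 6 to 12. The 6 were for the gene with the nearest TSS only (17.1% against 17.5%), the 12 within 2000 bp (34.3% against 33.3%). Of protein-coding genes, 3234 had a summit, 2040 to 3208 with a single replicate, and 1840 among the 10246 with 1 TSS. The pathway count of 16 was 10 to 18 with a single replicate and 25 within 2000 bp (54.3%, against 33.3% of protein-coding genes). Clusters held 3 summits, 1 at a global IDR of at most 0.001, 1 to 3 with a single replicate, and 10 with members under 100000 bp apart, where GstE11 joins the Epsilon cluster. The median distance of 3354 bp was 2658 bp for ranked peaks at a global IDR of at most 0.05, 15388 bp at 0.001, and 11389 to 12183 bp with a single replicate. Over the 11 motifs, promoters gave 59 gene and motif pairs, the 7 summit windows 5 and the whole peak intervals 15. What lies behind these differences was not tested. The own list of replicate 1 was close in size to the conservative list (7520 and 7537 peaks) and gave 3 GST genes against 8. The other 41 alternatives for these results moved a count by no more than 1.5 times or a median by less than the limit set for it. Depth, which the files do not give, limits what the weak summits show. No paired analysis was possible because all samples belong to 1 group.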
